A study of Sus scrofa domesticus with 2 samples.

Results

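The receptors KDR, FLT1, FLT4, NRP1, NRP2, TEK and TIE1 and the ligands ANGPT2, VEGFA and VEGFC of the vascular endothelial growth factor (VEGF) and angiopoietin systems were followed in cultured pig endothelial cells (ECs). They are 10 of the 22804 genes counted, and each was named in both libraries. They were chosen by name for their place in these systems. Their levels were followed in endothelial-like cells and in cells with high type I collagen RNA (collagen-high cells) of the lung and the aorta. The cells were primary ECs of domestic pigs, released with collagenase from the perfused lung or from the aorta near the lung and then grown in culture. There was 1 library of cultured lung ECs and 1 library of cultured aorta ECs, no treatment was named in the labels, and no age was given for the cultures themselves. The methods describe the pigs of the scRNA-seq work in general as slaughterhouse animals, hybrids of Landrace, Large White and Duroc, and state a single age in months for them. The study calls its animals adult. The libraries differed in depth as well as in tissue, and with 1 library each the tissue, animal, culture, library and depth cannot be told apart.

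VEGF ligands signal through receptor tyrosine kinases on the EC surface. KDR is the main signalling receptor for VEGFA, FLT1 binds VEGFA with high affinity and also exists as a secreted decoy, and FLT4 is the receptor for VEGFC in lymphatic ECs. The neuropilins NRP1 and NRP2 are co-receptors that bind VEGFs and semaphorins. In the angiopoietin system TEK, also called TIE2, is the receptor, TIE1 is a related receptor that modifies TEK signalling, and ANGPT2 is a ligand that mostly opposes ANGPT1 and is released by ECs in vessels under remodelling.

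The scRNA-seq libraries counted unique molecular identifiers (UMIs) near the 3′ ends of transcripts, so counts do not scale with transcript length. The aorta library held 46080859 UMIs in 1185 barcodes and the lung library 57213236 UMIs in 5946 barcodes. After the limits on cells, 955 aorta cells with a median of 52080 UMIs and 5709 lung cells with a median of 9463 UMIs were left. The 2 libraries shared 5 cell barcodes, 3 of them among kept cells. Endothelial-like cells numbered 631 in the aorta and 4952 in the lung, and collagen-high cells 139 and 337. Every endothelial-like cluster of both libraries held 12 of the 12 endothelial markers that could be used, with PECAM1 at 1292 CPM in the aorta and 1592 CPM in the lung. Clusters were named partly by holding these markers, so this follows in part from the naming. The immune-like lung cluster and 1 unnamed cluster of each library held 12 of 12 too. In lung endothelial-like cells the listed markers MMRN2 at 12.6 CPM, SOX17 at 7.44 CPM and PLVAP at 1.17 CPM were too low to be used. VWF, another defining EC gene, was near 0 with 7 UMIs in aorta and 19 in lung endothelial-like cells. The lymphatic markers PROX1 and LYVE1 were also near 0, with 0 and 0 UMIs in the aorta and 20 and 0 UMIs in the lung. Collagen-high cells held COL1A1 at 4910 CPM in the aorta and 5349 CPM in the lung and also carried PDGFRB and ACTA2. Of the listed pericyte markers, 2 were raised at least 2-fold over the other cells in each collagen-high cluster. Of the listed smooth muscle markers, 4 were raised in the aorta cluster. In the lung, 4 were raised in the cluster of 245 cells and 2 in that of 92 cells. The other genes of both lists did not count as raised, so the class is not named mural.

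Levels are UMIs per 1000000 UMIs of the pooled class (CPM), with the exact 95% Poisson interval. With 1 library per tissue no difference has a replicate check, no p-value is given, and all intervals cover counting error only. A difference was called when it reached 2-fold among genes at 20 CPM or more in at least 1 of the 2 classes compared.

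In Sscrofa11.1 the members lie apart from each other. On chromosome 15 ANGPT2 (chr15:37544177-37600925) and VEGFC (chr15:39037764-39136234) are on the same strand, and NRP2 lies far from both. RefSeq places KDR at chr8:41809116-41856379, FLT1 at chr11:5620698-5797095, FLT4 at chr2:78076008-78115137, NRP1 at chr10:56280673-56430832 and NRP2 at chr15:108974246-109092316. TEK lies at chr1:195938177-196052294, TIE1 at chr6:167919662-167947253 and VEGFA at chr7:38746393-38762282. None overlapped another gene on its own strand. ANGPT2 overlaps MCPH1, a gene of the opposite strand, NRP1, TEK and VEGFA each overlap an opposite-strand gene too, and FLT1 has transcripts with 3 different 3′ ends in this annotation, which the counts per gene do not separate. The bases before the start of 3 members are shown because these members stand for the patterns described further on: KDR was near 0, TEK was endothelial, and ANGPT2 was highest in collagen-high cells. Each line gives the 250 bases before the RefSeq gene start on the gene's own strand, 5′ to 3′, at chr8:41856380-41856629, chr1:196052295-196052544 and chr15:37600926-37601175. Capitals mark GGAA or its reverse complement TTCC, the core bound by ETS factors, which include the endothelial factor ERG. The starts are gene models and were not measured in these 3′ data.
KDR: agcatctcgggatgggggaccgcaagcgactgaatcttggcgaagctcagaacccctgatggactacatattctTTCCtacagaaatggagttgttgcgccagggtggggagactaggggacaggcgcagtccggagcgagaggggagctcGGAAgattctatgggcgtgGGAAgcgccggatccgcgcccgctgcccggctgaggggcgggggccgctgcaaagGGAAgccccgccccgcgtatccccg
TEK: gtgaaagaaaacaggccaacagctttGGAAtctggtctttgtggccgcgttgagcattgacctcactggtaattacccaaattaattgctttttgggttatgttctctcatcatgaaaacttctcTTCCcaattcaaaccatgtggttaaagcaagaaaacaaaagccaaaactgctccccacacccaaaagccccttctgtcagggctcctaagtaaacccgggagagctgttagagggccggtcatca
ANGPT2: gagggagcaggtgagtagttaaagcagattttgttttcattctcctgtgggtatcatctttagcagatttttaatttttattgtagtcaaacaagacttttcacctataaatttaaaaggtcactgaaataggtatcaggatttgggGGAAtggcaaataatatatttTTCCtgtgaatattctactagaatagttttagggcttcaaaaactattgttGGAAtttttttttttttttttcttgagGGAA
The core was found 4 times before KDR, 2 times before TEK and 4 times before ANGPT2, and 92.7% of 19572 protein-coding genes held it in the same window. The GC box GGGCGG, or CCGCCC on the other strand, was found 2 times before KDR and not before TEK or ANGPT2, and 45.9% of all windows held it. The TATA box TATAAA, or TTTATA, was found 1 time before ANGPT2 and not before KDR or TEK, and 9.76% of all windows held it. GC content was 64.8% before KDR, 45.6% before TEK and 30.8% before ANGPT2, where the median of all windows was 57.6%. Matches of such short motifs are descriptions of these windows.

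The levels of the members spanned several orders of magnitude. TIE1 was the most abundant receptor in endothelial-like cells, and the VEGF receptors KDR and FLT4 were the least. In aorta endothelial-like cells TIE1 was at 90.9 CPM (87.8 to 94.1), followed by VEGFC at 44.8 CPM (42.6 to 47.0). VEGFA at 26.3 CPM (24.7 to 28.1), FLT1 at 25.5 CPM (23.9 to 27.3), NRP1 at 23.8 CPM (22.3 to 25.5) and TEK at 22.3 CPM (20.8 to 24.0) came next, and the interval of each overlapped that of its neighbour in this order. NRP2 at 3.58 CPM (2.98 to 4.26) and ANGPT2 at 2.44 CPM (1.95 to 3.02) were lower by nearly an order of magnitude. In lung endothelial-like cells the order began with TIE1 at 89.6 CPM (87.0 to 92.2) and VEGFC at 81.5 CPM (79.0 to 84.0). VEGFA followed at 26.0 CPM (24.6 to 27.5), FLT1 at 21.0 CPM (19.7 to 22.3), TEK at 17.6 CPM (16.4 to 18.7) and NRP1 at 13.8 CPM (12.8 to 14.9), with intervals that did not overlap between neighbours. NRP2 was at 4.17 CPM (3.63 to 4.77) and ANGPT2 at 1.96 CPM (1.59 to 2.38).

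**Figure D1:**
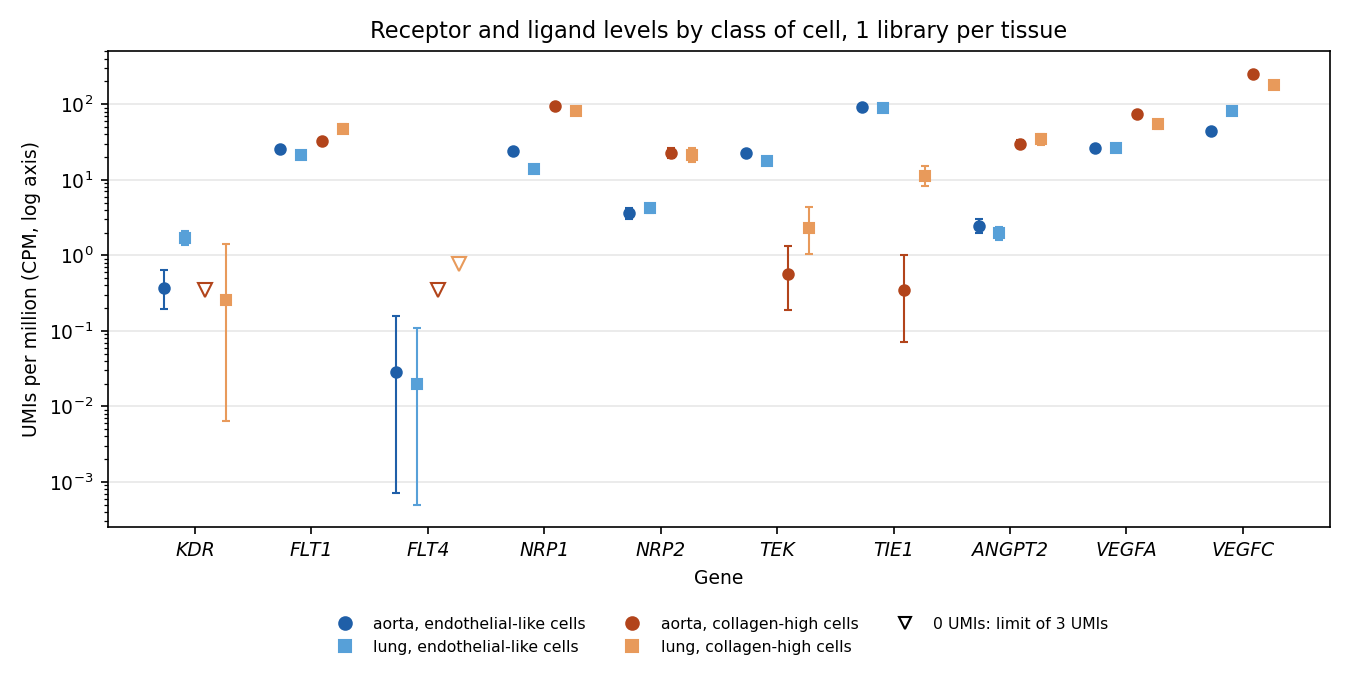
Levels of the 10 members in endothelial-like and collagen-high cells of the aorta (circles) and the lung (squares), as CPM on a log axis with exact 95% Poisson intervals for counting error. Open triangles stand at the level of 3 UMIs where a class had 0. TEK and TIE1 were higher in endothelial-like cells, NRP1, NRP2, ANGPT2, VEGFA and VEGFC were higher in collagen-high cells, and KDR and FLT4 were near 0.

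KDR had 13 UMIs in 631 aorta endothelial-like cells, 0.369 CPM (0.197 to 0.632), and 87 UMIs in 4952 lung endothelial-like cells, 1.70 CPM (1.36 to 2.10). The lung level was 4.61-fold higher (2.56 to 9.005), but both were far under the 20 CPM needed for a call. A KDR UMI was seen in 1.62% of lung endothelial-like cells (Clopper-Pearson 1.28 to 2.01) and in 1.74% of the deeper aorta cells (0.873 to 3.10). Collagen-high cells, which should lack the gene, had 0 KDR UMIs in the aorta, with an interval up to 0.423 CPM. In the lung they had 1 UMI, 0.256 CPM (0.00649 to 1.43). Of the lung KDR UMIs no cell held more than 3, and the variance over cells was 1.17 times that expected from depth alone. FLT4 had 1 UMI in endothelial-like cells of each library, 0.0284 CPM in the aorta and 0.0196 CPM in the lung, and 0 UMIs in collagen-high cells of both. TIE1 gave 3200 UMIs in the same aorta cells in which KDR gave 13 and FLT4 gave 1. The counts rest on Ensembl gene models, and whether these hold the full 3′ end of KDR or FLT4 in pig was not tested. In the RefSeq annotation the next gene on the strand of KDR, a long non-coding RNA, begins 720 bases beyond the 3′ end of KDR.

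TEK and TIE1 followed the endothelial class. In the aorta TIE1 was at 90.9 CPM in endothelial-like cells and at 0.344 CPM (0.0710 to 1.01; 3 UMIs) in collagen-high cells, a 264-fold difference with a counting interval of 90.3 to 1281. TEK was at 22.3 CPM and 0.574 CPM (0.186 to 1.34; 5 UMIs) in the same classes, 38.9-fold (16.6 to 120). These 2 of the 8 members tested were called higher in endothelial-like cells of the aorta, where 12.6% of 6301 genes tested were called in that direction. In lung endothelial-like cells TIE1 was at 89.6 CPM, and in lung collagen-high cells at 11.3 CPM (8.19 to 15.1), a difference of 7.95-fold (5.91 to 10.95). It was the only one of 7 members tested that was called in that direction in the lung, against 9.72% of 6048 genes tested. TEK was at 17.6 CPM and 2.31 CPM (1.05 to 4.38), 7.61-fold (3.99 to 16.7), but was under 20 CPM in both lung classes and so was not tested. With the methods' limit of fewer than 5000 genes per cell, 158 endothelial-like and 22 collagen-high aorta cells were left, and the latter held 0 UMIs of both genes. TIE1 was then at 98.3 CPM and TEK at 19.8 CPM in endothelial-like cells. Against the level of 3 UMIs the log2 ratio was at least 2.75 for TIE1 and at least 0.44 for TEK, so these few cells could not show a 2-fold difference of TEK.

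The residual TIE1 and TEK of lung collagen-high cells stood at the same scale as other EC genes there. TIE1 was at 12.6% and TEK at 13.1% of the endothelial-like level, PECAM1 was at 10.1% and CDH5 at 12.1%, and the median over 12 endothelial markers was 12.8%, with a range of 9.26% for SOX18 to 34.8% for CLEC14A. In aorta collagen-high cells TIE1 was at 0.379% and TEK at 2.57%, PECAM1 was at 1.10%, and the median over the 12 markers was 1.51%. These markers ranged from 0.439% for ECSCR to 31.7% for ERG, so TIE1 was below all 12. The 12 markers together summed to 489 CPM in lung and 155 CPM in aorta collagen-high cells, against 3867 CPM and 3720 CPM in the endothelial-like cells. The 32 lung collagen-high cells with a TIE1 UMI had a median of 17507.5 UMIs per cell, and the 305 without one had 10523. TEK was seen in 5 of the former and 3 of the latter. The part of free RNA or of barcodes with more than 1 cell in these levels was not tested.

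Within endothelial-like cells pooled TIE1 was higher in clusters without raised cycle genes than in cycling clusters of both libraries, and TEK hardly differed. In the aorta TIE1 was at 108 CPM (103 to 113) in clusters without raised cycle genes, at 72.9 CPM (68.0 to 78.1) in S phase and at 80.9 CPM (74.7 to 87.5) in G2M clusters. The lung gave 100 CPM (96.0 to 105), 81.2 CPM (76.6 to 86.1) and 83.5 CPM (79.3 to 88.0). By cluster, the aorta clusters without raised cycle genes were at 111 CPM (105 to 117) and 98.2 CPM (88.1 to 109), the former led by CXCL10, SLPI and CCL5. Those of the lung ranged from 94.7 CPM (88.4 to 101) to 107 CPM (100 to 114), the latter led by SLPI, CFD and CRYAB. The cycling lung clusters were at 71.1 to 88.1 CPM. The highest of these, 88.1 CPM (81.8 to 94.7), overlapped the lung cluster at 94.7 CPM. In the lung, cycle state was thus not fully separable from single clusters. TEK was at 22.9, 20.6 and 23.7 CPM in the aorta and at 16.9, 17.1 and 18.7 CPM in the lung, with overlapping intervals within each library. TIE1 was spread evenly over cells. It had a UMI in 96.5% of aorta endothelial-like cells (94.8 to 97.8), where the median cell held 5 and the highest 21, and its variance was 1.51 times that expected from depth, and 0.983 times the mean after thinning to 3500 UMIs per cell. In the shallower lung cells it had a UMI in 57.7% (56.3 to 59.1), and after all cells were thinned to 3500 UMIs the shares were 28.0% in the aorta (24.5 to 31.7) and 27.3% in the lung (26.0 to 28.6). Thinned TEK shares were 7.15% (5.27 to 9.46) and 6.07% (5.42 to 6.77). In collagen-high cells the thinned TIE1 shares were 0% (0 to 2.62) in the aorta and 2.75% (1.27 to 5.16) in the lung.

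ANGPT2 went the other way. It was at 2.44 CPM in aorta endothelial-like cells and 30.0 CPM (26.4 to 33.8) in aorta collagen-high cells, 12.3-fold higher (9.57 to 15.8), and at 1.96 CPM and 34.3 CPM (28.8 to 40.7) in the lung, 17.5-fold higher (13.4 to 23.0). In the aorta 8 members were tested and 5 were called higher in collagen-high cells, NRP1, NRP2, ANGPT2, VEGFA and VEGFC. There 7.92% of genes tested were called in that direction. In the lung 7 members were tested and 6 were called, the same 5 and FLT1, where 6.6% of genes tested were called. Of the members higher in collagen-high cells, ANGPT2 had the highest fold in both libraries. Its level in collagen-high cells was alike in the lung and the aorta, with a ratio of 1.15 (0.923 to 1.42). MCPH1, in which ANGPT2 lies on the opposite strand, was at 8.75 to 10.8 CPM in the 4 classes. Whether reads of MCPH1 add to the ANGPT2 counts was not tested.

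The 2 lung collagen-high clusters differed in ANGPT2. The larger cluster, 245 cells led by ACTA2, COL6A1, COL1A2 and ACTG2, held all 134 ANGPT2 UMIs of the class, 46.5 CPM (39.0 to 55.1), and 33.9% of its cells had one. The smaller cluster, 92 cells led by COL3A1, COL1A1, COL1A2 and IGFBP5 and including WT1 among its leading genes, had 0 ANGPT2 UMIs. The interval of that count reached up to 3.61 CPM. VEGFC, FLT1, NRP2 and VEGFA were present in both clusters with overlapping intervals. VEGFC was at 180 CPM (165 to 196) and 189 CPM (163 to 218) in the larger and the smaller cluster, FLT1 at 49.3 CPM (41.5 to 58.1) and 43.1 CPM (31.3 to 57.8), NRP2 at 20.1 CPM (15.3 to 26.0) and 24.5 CPM (15.8 to 36.1), and VEGFA at 56.6 CPM (48.2 to 66.0) and 47.0 CPM (34.6 to 62.3). NRP1 was higher in the larger cluster, at 89.6 CPM (79.0 to 101) against 56.8 CPM (43.1 to 73.4). ANGPT2 was not used for clustering, but the cells were clustered on other genes of the same cells, so these values are a description.

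**Figure D2:**
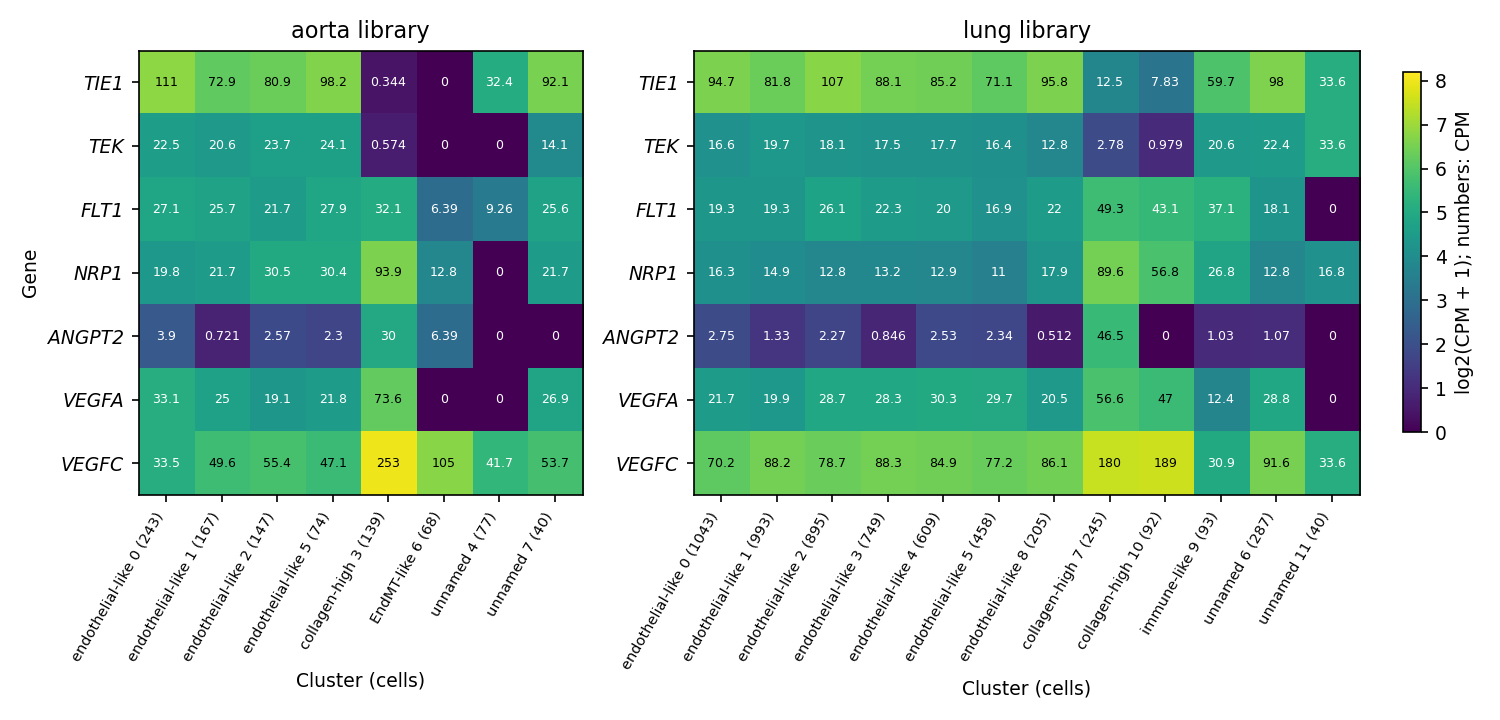
Levels of 7 members in every cluster of the aorta and lung libraries, with the number of cells in brackets, coloured by log2(CPM + 1) and printed as CPM. TIE1 and TEK were present across the endothelial-like clusters, and ANGPT2 was at 30.0 CPM in the aorta collagen-high cluster and at 46.5 and 0 CPM in the 2 lung collagen-high clusters.

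ANGPT2 UMIs were unevenly spread over cells, and in collagen-high cells so were those of VEGFA. In aorta collagen-high cells 61.9% had a UMI (53.3 to 70.0), and the variance was 3.27 times that expected from depth, a measure that grows with the mean count. For VEGFA it was 3.68 times in the same cells. After thinning to 3500 UMIs per cell the variance of ANGPT2 was 1.09 times the mean in the aorta and 1.43 times in lung collagen-high cells. The thinned values of VEGFA were 1.19 and 1.40. The 34 aorta collagen-high cells with 3 or more ANGPT2 UMIs held 70.9% of the ANGPT2 UMIs of the class. They were picked by that count and were also deeper, with a median of 75444 UMIs against 60444 in cells without ANGPT2. In aorta endothelial-like cells 588 of 631 cells had no ANGPT2 UMI, and 6 cells held 43 of the 86 UMIs. The highest of these held 17, in a cell of 67314 UMIs with 83 UMIs of PECAM1 and CDH5 and 2 of COL1A1 and COL1A2. The 6 cells together had 57.5 CPM of the 2 collagen genes and a median of 52116.5 UMIs, against 65.6 CPM and 54941 UMIs in the 588 cells without ANGPT2. Their PECAM1 and CDH5 level of 1613 CPM was near the 1485 CPM of those 588 cells. In the lung 1 endothelial-like cell held 3 ANGPT2 UMIs and none held more. The 88 lung endothelial-like cells with 1 or 2 ANGPT2 UMIs had 127 CPM of the 2 collagen genes, against 36.8 CPM in cells without ANGPT2, and the 37 such aorta cells had 221 CPM. The median cell held 0 collagen UMIs in both lung groups and 2 in both aorta groups, so a minority of cells carried the difference.

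The neuropilins were also higher in collagen-high cells of both libraries. In the aorta NRP1 was at 23.8 CPM among endothelial-like cells and at 93.9 CPM (87.6 to 101) among collagen-high cells, 3.94-fold (3.57 to 4.34), and in the lung at 13.8 CPM and 81.0 CPM (72.3 to 90.4), 5.85-fold (5.11 to 6.69). NRP2 went from 3.58 to 22.6 CPM (19.6 to 26.0) in the aorta, 6.32-fold (5.03 to 7.96), and from 4.17 to 21.3 CPM (16.9 to 26.4) in the lung, 5.10-fold (3.91 to 6.60). Nearly every aorta collagen-high cell had an NRP1 UMI, 135 of 139, while 383 of 631 endothelial-like cells of similar depth had one. In collagen-high cells NRP1 was thus the most abundant receptor of the 7, about where TIE1 stood in endothelial-like cells.

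FLT1 was the one VEGF receptor tyrosine kinase present in both classes. In the lung, endothelial-like cells held FLT1 at 21.0 CPM and collagen-high cells at 47.7 CPM (41.1 to 55.0), 2.27-fold higher in the latter (1.93 to 2.66). In the aorta it was at 25.5 CPM and 32.1 CPM (28.5 to 36.1), 1.26-fold (1.10 to 1.44), which was not called. With cells thinned to 3500 UMIs the log2 ratio of endothelial-like over collagen-high was 0.43, in the other direction. That value rested on few counts, with FLT1 left in 11 of 139 collagen-high cells. The thinned shares of cells with FLT1, 9.86% (7.64 to 12.5) and 7.91% (4.02 to 13.7), had overlapping intervals. On the log2 scale the collagen-high over endothelial-like difference of FLT1 was 0.85 larger in the lung than in the aorta (0.56 to 1.15). A FLT1 UMI was seen in 68.3% of endothelial-like (64.5 to 71.9) and 74.1% of collagen-high aorta cells (66.0 to 81.2), at medians of 55002 and 62295 UMIs.

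Both VEGF ligands were present in endothelial-like cells and higher in collagen-high cells. VEGFC, the ligand of FLT4, was the most abundant member in collagen-high cells, at 253 CPM (243 to 264) in the aorta and 182 CPM (169 to 196) in the lung. These levels were 5.66-fold (5.30 to 6.04) and 2.24-fold (2.06 to 2.42) above the endothelial-like levels of 44.8 and 81.5 CPM. The log2 difference was 1.34 smaller in the lung than in the aorta (lung minus aorta, -1.49 to -1.19). VEGFA was at 73.6 CPM (68.0 to 79.5) in aorta and 54.1 CPM (47.0 to 61.9) in lung collagen-high cells, 2.79-fold (2.52 to 3.09) and 2.08-fold (1.79 to 2.40) above the endothelial-like levels of 26.3 and 26.0 CPM. The lung fold of VEGFA lay close to the 2-fold limit, and its interval crossed it. In the aorta cells with fewer than 5000 genes the VEGFA log2 ratio of endothelial-like over collagen-high was -0.86, and VEGFA was no longer called.

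Within aorta endothelial-like cells the ligands differed most between 1 cluster and the others. VEGFC was at 33.5 CPM (30.4 to 36.8) in the largest cluster, led by CXCL10, SLPI and CCL5, and at 47.1 CPM (40.2 to 54.9) in the other cluster without raised cycle genes. The S phase cluster at 49.6 CPM (45.5 to 53.9) and the G2M cluster at 55.4 CPM (50.3 to 60.9) overlapped the latter. VEGFA was highest in the largest cluster, at 33.1 CPM (30.1 to 36.5), against 21.8 CPM (17.2 to 27.3) in the other cluster without raised cycle genes, 24.97 CPM (22.1 to 28.1) in S phase and 19.1 CPM (16.2 to 22.4) in G2M. A difference by cycle state was thus not separable from that cluster. Over the lung endothelial-like clusters VEGFC ranged from 70.2 to 88.3 CPM and VEGFA from 19.9 to 30.3 CPM. The median aorta endothelial-like cell held 1 VEGFC UMI, the highest 21, and the tenth of cells with most VEGFC held 42.0% of its UMIs. At full depth the variance over these cells was 3.91 times that expected from depth for VEGFC, 2.28 times for VEGFA and 1.69 times for TEK. This measure grows with the mean count. After thinning to 3500 UMIs per cell the variance of VEGFC was 1.12 times, of VEGFA 1.09 times and of TEK 1.19 times the mean in the aorta. Thinned TEK was seen in only 45 of 629 aorta cells, so these 3 values cannot rank the genes. In lung endothelial-like cells the thinned values were 1.14 for VEGFC, 1.01 for VEGFA and 1.02 for TEK.

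**Figure D3:**
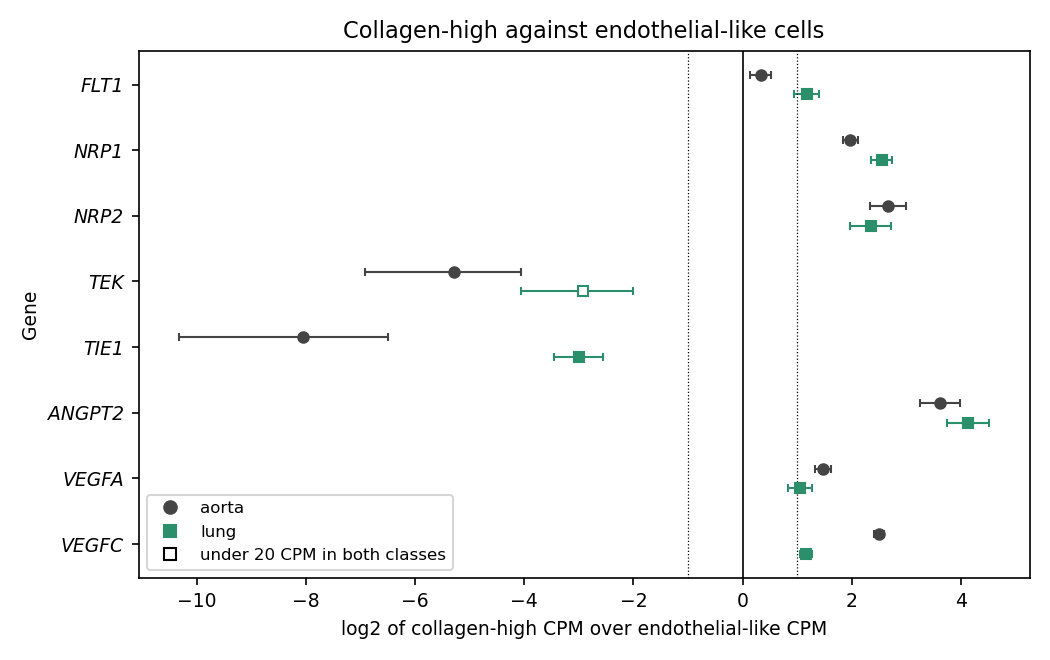
Log2 ratio of the collagen-high over the endothelial-like CPM for 8 members in the aorta (dark circles) and the lung (green squares), with exact 95% intervals for counting error and dotted lines at 2-fold. TEK and TIE1 lie to the left, FLT1, NRP1, NRP2, ANGPT2, VEGFA and VEGFC lie to the right, with FLT1 in the aorta under 2-fold, and TEK in the lung is open because it was under 20 CPM in both classes.

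Between the tissues no member reached 2-fold among those tested. No member was called between lung and aorta endothelial-like cells, where 1.3% of 5908 genes tested were called higher in the lung and 3.13% higher in the aorta, and 6 members were tested. The TIE1 ratio of lung over aorta was 0.985 (0.942 to 1.03) and that of VEGFA 0.988 (0.908 to 1.08). VEGFC was 1.82-fold higher in the lung (1.72 to 1.93), and NRP1 was 1.72-fold higher in the aorta (1.56 to 1.91). TEK was 1.27-fold (1.15 to 1.40) and FLT1 1.22-fold (1.11 to 1.33) higher in the aorta. All 4 exceeded their counting error but stayed under 2-fold.

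Of the other cell classes, the EndMT-like aorta cluster of 68 cells had a median of 3727.5 UMIs and few counts for the members. It held 33 VEGFC UMIs, 105 CPM (72.6 to 148), and 0 to 4 UMIs of each other member, near or under the limit of 3 UMIs at 9.58 CPM. The immune-like lung cluster of 93 cells held TIE1 at 59.7 CPM (45.3 to 77.2), TEK at 20.6 CPM (12.6 to 31.8) and FLT1 at 37.1 CPM (26.0 to 51.3), and it also held 12 of 12 endothelial markers, which summed to 62.3% of their endothelial-like level. VEGFC was lower there, at 30.9 CPM (20.8 to 44.1).

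Of 54 other genes of these pathways, 50 were counted under their name. Of the other VEGF and angiopoietin ligands only VEGFB, a ligand of FLT1, was above 20 CPM, at 45.2 and 45.8 CPM in endothelial-like and 45.5 and 48.2 CPM in collagen-high cells of aorta and lung. PGF, also a ligand of FLT1, was at 0.344 to 2.62 CPM in the 4 classes. ANGPT1, the activating ligand of TEK, was at 0.483 CPM (17 UMIs) in aorta endothelial-like cells and at 1 to 4 UMIs in each of the other 3 classes, and VEGFD and ANGPT4 had 0 to 5 UMIs in each class. In the lung 28 listed genes were tested between the classes. Of these, 9 were called higher in endothelial-like and 3 higher in collagen-high cells, where 9.72% and 6.6% of all genes tested were called. The median log2 ratio of the 28 was 0.68 where that of all genes was 0.00. In the aorta 29 were tested, and 11 and 4 were called, where 12.6% and 7.92% of all genes tested were called. The median was 0.83 where that of all genes was -0.03.

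The listed genes with the largest folds included partners of the members. NOS3, the endothelial nitric oxide synthase, was 9.26-fold higher in endothelial-like cells of the lung (5.98 to 15.2) and 385-fold higher in the aorta (107 to 3183; 2 UMIs in collagen-high cells). PTPRB, a phosphatase of TEK, was 5.28-fold (4.23 to 6.67) and 7.75-fold (6.58 to 9.19) higher in endothelial-like cells. ANGPTL4, a secreted protein of lipid metabolism, was 4.90-fold higher in the lung, and EFNB2, an arterial ligand that takes part in VEGF receptor uptake, 4.50-fold higher in the aorta. ITGB3, an integrin that pairs with ITGAV, was higher in collagen-high cells, 6.42-fold in the lung (5.66 to 7.28) and 23.2-fold in the aorta (19.1 to 28.5). UNC5B, a guidance receptor, was 3.80-fold and 4.24-fold higher in collagen-high cells of lung and aorta, RCAN1, a calcineurin regulator induced by VEGF, 2.31-fold in the lung, and DUSP5, a phosphatase of ERK, 2.59-fold in the aorta. Between the tissues ADM, the hypoxia-induced peptide adrenomedullin, was 8.24-fold (7.56 to 8.99), ANGPTL4 2.38-fold and BNIP3 1.81-fold higher in lung endothelial-like cells. ARNT, the partner of HIF1A, was 2.51-fold, RCAN1 1.91-fold and NOS3 1.86-fold higher in those of the aorta.

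Over 18 clusters of at least 50 cells, taken from all classes, TEK and TIE1 varied together. Within the endothelial-like clusters of the aorta TIE1 ranged from 72.9 to 111 CPM and TEK from 20.6 to 24.1 CPM. In those of the lung the ranges were 71.1 to 107 CPM and 12.8 to 19.7 CPM, and no correlation was taken within the endothelial-like clusters alone. Correlations are of log2(CPM + 10) over clusters, which share libraries and differ in depth, and are given as descriptions. TEK and TIE1 had a Pearson r of 0.91, NRP1 and NRP2 of 0.73, ANGPT2 and NRP1 of 0.71, FLT1 and NRP1 of 0.79, and TIE1 and VEGFC of -0.67. Among 7655 genes, the genes most like TEK were THSD1 (r = 0.98), COG3 (0.97) and SCARF1 (0.96), along with 2 genes known only by identifier. Those most like ANGPT2 were MASP1 (0.96), ADAM7 (0.94), ADAMTS12 (0.93) and KCNK12 (0.92), and those most like NRP1 were MICAL1 (0.92), SGPP1 (0.91) and SGCE (0.91). VEGFA was most like FADS3 (0.96), VCL (0.94), LAMC1 (0.93), FKBP10 (0.93) and FBXO30 (0.93). For KDR the highest were ZNF205, EIF2AK1, IPO8, DOCK1 and RFXAP at 0.84 to 0.86, but KDR reached only 4.12 CPM in its highest cluster, from 4 UMIs.

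ANGPT2 and its receptor TEK were seen in the same endothelial-like cells at shares that did not depend on ANGPT2 within their intervals. In aorta endothelial-like cells TEK was seen in 60.5% (44.4 to 75.0) of the 43 cells with ANGPT2 and in 61.1% (56.98 to 65.02) of the 588 without. In lung endothelial-like cells the same shares were 16.9% (9.75 to 26.3) of 89 cells and 16.2% (15.2 to 17.3) of 4863. NRP1 was seen in 72.3% (61.4 to 81.6) of the 83 lung collagen-high cells with ANGPT2 and in 53.1% (46.8 to 59.4) of the 254 without, at medians of 11881 and 10446 UMIs. All of the cells with ANGPT2 were in the larger collagen-high cluster, in which NRP1 was also higher.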

How the data were processed

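Single cells of cultured pig aorta and lung ECs were counted with 10x 3′ chemistry. Per the labels and the study's methods, the authors deposited UMI counts per gene and cell from Cell Ranger 3.0.2 on the pig genome Sscrofa11.1. The counts were raw and were not normalized. Kept cells had more than 200 genes, and 12 mitochondrial genes gave less than 30% of their UMIs. The methods' limit of fewer than 5000 genes would remove 709 of 955 aorta cells and was an alternative. Each library was clustered in Seurat 5.3.0 (R 4.3.3) on 2000 variable genes less the members and markers, with 20 principal components and resolution 1. Clusters were named from fixed marker lists with thresholds set after marker levels were seen, and low-depth or mixed clusters stayed unnamed. No doublet caller was run, and leaving out the top 5% of cells by genes was an alternative. UMIs were pooled per class into CPM in Python 3.11.15 (scipy 1.17.1), with exact Poisson, conditional binomial and Clopper-Pearson 95% intervals. With 1 library per group there was no test. A call needed 2-fold and 20 CPM in 1 class. Counts of 0 were given the limit of 3 UMIs. Sampling to 3500 UMIs thinned cells to 1 depth. The members, gene lists and rules were chosen with earlier results of these data known. Named were all members, the 3 pathway genes with the largest fold each way per comparison, and, for 5 members, the named genes among the 5 most correlated over clusters. Gene places and bases before gene starts came from RefSeq for Sscrofa11.1. TMM factors came from edgeR 4.0.16. Pooling was tested on simulated data.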

Additional observations from a re-analysis of the deposited data

Results flagged for a closer look

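Barcodes outside the limits on genes and mitochondrial share, which no comparison used, also held UMIs of the members. In the aorta 230 such barcodes held 175 UMIs of the 10 members together, 202 CPM, against 290 CPM in kept cells and a limit of 3.47 CPM for a count of 0. In the lung 237 such barcodes held 56 UMIs, 215 CPM, against 269 CPM in kept cells and a limit of 11.5 CPM.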

How the results depend on the processing

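Across 14 alternatives, 77 counts of called members stayed within 1.5 times the reported count, 3 rose above and 4 fell below it. With fewer than 5000 genes per cell, 1 member (TIE1) instead of 2 was higher in aorta endothelial-like cells, because TEK was at 19.8 CPM, under the limit of 20, and the 22 collagen-high cells held 0 TEK UMIs, so its log2 ratio of 0.44 is a lower bound. With CPM taken without mitochondrial and ribosomal genes, 2 members (TEK and TIE1) were higher in lung endothelial-like cells. At 50 CPM or more, 3 members were higher in lung and 3 in aorta collagen-high cells (NRP1, VEGFA and VEGFC in both), and 1 (TIE1) in aorta endothelial-like cells, since fewer members were tested. With no filter on low genes, 3 (KDR, TEK and TIE1) were higher in lung endothelial-like cells, and 1 (KDR) was higher in lung than aorta endothelial-like cells. The shares of all genes called at these alternative thresholds are not given here. Of the fold changes 263 stayed inside their counting interval and 31 did not. Of the levels 300 did and 60 did not, 29 of these with CPM taken without mitochondrial and ribosomal genes and 17 with fewer than 5000 genes. Of the shares of cells 26 did and 54 did not, 36 of these after thinning, which by itself lowers shares, and 18 with fewer than 5000 genes. FLT1 in the aorta ranged over log2 ratios of -0.35 to 0.43, the latter from thinned cells with few FLT1 counts. TMM scaling moved the median of all genes between lung and aorta by 0.10 on the log2 scale. No paired analysis was possible because there was 1 library per tissue. Leaving out a library was not possible for the same reason. Depth limits KDR and FLT4, and TEK and TIE1 in collagen-high cells, which rest on few UMIs.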
